A study of Mus musculus with 15 samples.

Results

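Fc receptors are the proteins through which phagocytes bind the constant part of antibodies, and 6 of their genes were followed here: Fcgr1, Fcgr2b, Fcgr3, Fcgr4, Fcer1g and Fcgrt. They were chosen by name and found by their Ensembl identifiers among the 19456 genes of the counts table, and all 6 were among the 15802 genes that passed the filter on low counts. RNA sequencing had been performed on 15 libraries from adult male wild type C57BL/6 mice. Ly6Chi monocytes from peripheral blood gave 3 libraries, and each of 3 macrophage subsets sorted from the small intestine by surface Tim-4 and CD4 gave 4. These were Tim-4-CD4- cells, then Tim-4-CD4+ cells, then Tim-4+CD4+ cells, and values of the 3 subsets are given in that order. Cells of 3 mice were pooled for a library, and of 4 mice for monocyte replicate 2, so that the replicates were separate pools and not single animals. No mouse was treated or mutant. The study was built to compare the subsets with each other and with the blood monocyte.

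Fcgr1 (CD64), Fcgr3 (CD16) and Fcgr4 encode activating receptors for IgG. None of them signals alone: each assembles with the common gamma chain, encoded by Fcer1g, whose cytoplasmic tail carries an immunoreceptor tyrosine-based activation motif (ITAM) that is phosphorylated by Src family kinases and then binds the kinase Syk. Fcgr2b (CD32) encodes the only inhibitory member, with an inhibitory motif (ITIM) that recruits the inositol phosphatase encoded by Inpp5d. Fcgrt encodes the heavy chain of the neonatal Fc receptor, FcRn, a relative of MHC class I that pairs with beta-2 microglobulin, binds IgG in acid endosomes and returns it to the cell surface. In macrophages these receptors serve the uptake of antibody-coated particles, the setting of the threshold for activation, and the handling of IgG.

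On GRCm38, 4 of the 6 genes lay on chromosome 1, with Fcgr2b at chr1:170958617-170976547, Fcgr4 at chr1:171018920-171029761, Fcgr3 at chr1:171051174-171064935 and Fcer1g at chr1:171229572-171234365. Fcgr1 lay at chr3:96282909-96293969 and Fcgrt at chr7:45092990-45103851. All were transcribed from the minus strand except Fcgr4. The motifs that divide the family are short, and their coding sequences, on the minus strand of GRCm38 with the tyrosine codons in capitals, are shown because the activating and inhibitory members differ by them:
Fcer1g ITAM: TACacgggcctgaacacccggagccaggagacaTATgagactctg
Fcgr2b ITIM: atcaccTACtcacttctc
The first lay in exons 4 and 5 of the Fcer1g-201 transcript (chr1:171229889-171230072, across an intron) and the second in exon 10 of Fcgr2b-204 (chr1:170961071-170961088). A pair of tyrosines at the spacing of an ITAM was found in the translated sequence of Fcer1g and in none of the other 5. The shorter ITIM pattern was less particular: beside the 1 match in Fcgr2b it matched 3 times in Fcgr1, once each in Fcgr4, Fcer1g and Fcgrt, and not in Fcgr3, and a match of letters is not a working motif.

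Fcgr2b and Fcgr3 are near copies over their extracellular part, which bears on every count of them. Over 509 aligned coding bases they were 96.5% identical, whereas the other pairs of the 4 Fc gamma receptors were between 57.0% and 64.3% identical where they aligned. The longest identical run, in exons 5 and 6 of Fcgr2b-204 and exons 3 and 4 of Fcgr3-201, was 129 bases:
Fcgr2b and Fcgr3: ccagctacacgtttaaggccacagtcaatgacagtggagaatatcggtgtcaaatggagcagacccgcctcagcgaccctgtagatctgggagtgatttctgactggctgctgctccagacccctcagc
Of the windows of 65 bases, the length of a single read, 121 of 956 (12.66%) in the Fcgr2b coding sequence and 121 of 737 (16.42%) in that of Fcgr3 occurred in the other gene as well. A read from there was counted only if its mate placed it, since reads with more than 1 position were discarded. No window of Fcgr1, Fcgr4, Fcer1g or Fcgrt occurred in another gene. Fcgr2b also overlapped an antisense gene, Gm38204, by 155 exon bases, and whether counting used the strand is not stated.

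Tim-4+CD4+ replicate 1 was the library that stood apart. Its counts differed from those of the other 3 libraries of its subset by a chi-square per degree of freedom of 210 to 269, against 38.5 to 73.9 among those 3, and it had the highest Fcgrt, Fcgr3, Fcgr4, Fcgr1 and Fcer1g of its subset. The differences and ratios of Tim-4+CD4+ macrophages that it moved most are also given without it. The depth ran from 39388763 to 151510641 counts per library.

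Gut macrophages of every subset expressed more Fcgr4, Fcgrt, Fcgr2b and Fcgr3 than blood monocytes, whereas Fcgr1 and Fcer1g did not pass the test. Values are CPM, read counts scaled to the depth of the library, after TMM normalization. A gene was called when edgeR's quasi-likelihood test, with Benjamini-Hochberg adjustment over all genes tested, gave an adjusted p below 0.05. In each of the 3 comparisons with monocytes, 4 of the 6 were called higher and none lower, by the same test. Of all genes tested, 37.3% were higher and 28.1% lower in Tim-4-CD4- macrophages than in monocytes, 39.1% and 30.7% in Tim-4-CD4+ macrophages, and 39.5% and 31.3% in Tim-4+CD4+ macrophages. The median log2 fold change of the 6 genes was 0.72, 0.71 and 0.64 in the same order, beside 0.08, 0.11 and 0.10 over all genes tested. The other 2 genes had unadjusted p-values over 0.05 in all 3 comparisons, and neither edgeR nor DESeq2 called them. The 3 comparisons share their monocyte libraries.

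**Figure D1:**
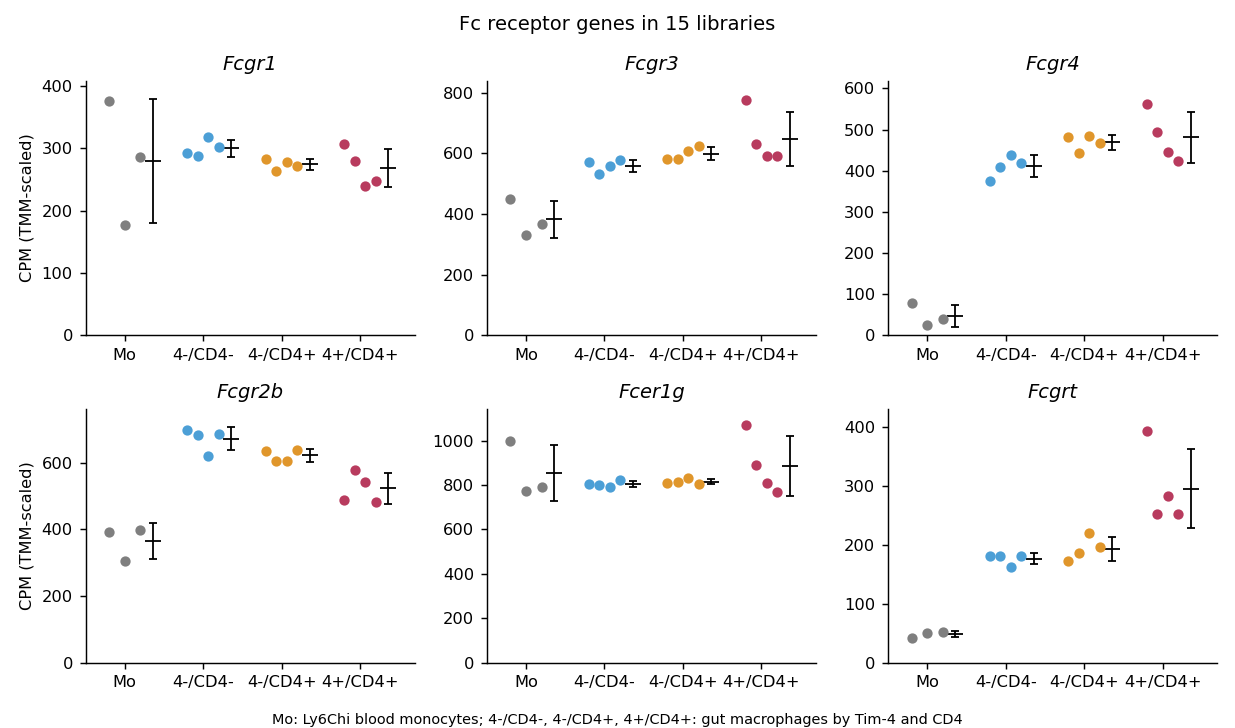
Expression of the 6 Fc receptor genes in each library. The vertical axis of each panel is TMM-scaled CPM from 0, each point is 1 library, and the bar beside the points is the mean with its SD (n = 3 for monocytes, Mo, and n = 4 for each macrophage subset). All macrophage libraries lie above all monocyte libraries for Fcgr3, Fcgr4, Fcgr2b and Fcgrt, the libraries overlap for Fcgr1 and Fcer1g, and 1 Tim-4+CD4+ library stands highest of its subset for Fcgr1, Fcgr3, Fcgr4, Fcer1g and Fcgrt.

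Of the activating receptors, Fcgr4, which binds IgG subclasses of the mouse with intermediate affinity, differed by far the most from monocytes. It was at 77.4, 25.4 and 38.9 CPM in the 3 monocyte libraries. It was at 376, 409, 439 and 419 CPM in Tim-4-CD4- macrophages, at 482, 443, 484 and 468 CPM in Tim-4-CD4+ macrophages, and at 562, 494, 444 and 423 CPM in Tim-4+CD4+ macrophages. No macrophage library came near the highest monocyte library, which itself held more than the other 2 together. The log2 fold change from monocytes was 3.12 ± 0.27 (SE) in Tim-4-CD4- (adjusted p = 2.9e-08, edgeR), 3.31 ± 0.27 in Tim-4-CD4+ (adjusted p = 1.3e-08) and 3.35 ± 0.27 in Tim-4+CD4+ macrophages (adjusted p = 1.06e-08), or 8.68-fold, 9.92-fold and 10.2-fold. These sizes depended on monocyte replicate 1, the highest of its group, without which the differences were 13.02-fold, 14.9-fold and 15.3-fold. By mean CPM, Fcgr4 stood at the 74.55th percentile of genes tested in monocytes and between the 97.85th and 98.34th in the macrophage subsets.

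Fcgr3, the low-affinity activating receptor, was higher in macrophages to a smaller extent. Monocyte libraries had 449, 330 and 366 CPM. Libraries of Tim-4-CD4- macrophages had 571, 533, 558 and 576 CPM, those of Tim-4-CD4+ macrophages 581, 583, 606 and 625 CPM, and those of Tim-4+CD4+ macrophages 776, 630, 593 and 590 CPM. Every macrophage library was above every monocyte library. The log2 fold change from monocytes was 0.55 ± 0.11 (SE, adjusted p = 0.000407, edgeR) in Tim-4-CD4-, 0.65 ± 0.11 (adjusted p = 7.9e-05) in Tim-4-CD4+ and 0.76 ± 0.11 (adjusted p = 1.47e-05) in Tim-4+CD4+ macrophages.

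Fcgr1, the high-affinity receptor, was not distinguishable between monocytes and macrophages. CD64, its product, was one of the proteins on which the macrophages had been gated, so its presence there was fixed by the sort. It was at 375, 177 and 285 CPM in monocytes, at 292, 288, 318 and 302 CPM in Tim-4-CD4-, at 283, 264, 278 and 271 CPM in Tim-4-CD4+ and at 307, 280, 240 and 247 CPM in Tim-4+CD4+ macrophages. The monocyte libraries lay both above and below all those of the macrophages, and their coefficient of variation was 35.5%, against 4.44%, 3.05% and 11.6% in the 3 subsets in turn. The log2 fold changes from monocytes were 0.10 (95% interval -0.26 to 0.46), -0.03 (-0.39 to 0.33) and -0.06 (-0.42 to 0.30) for the 3 subsets in turn, with adjusted p-values of 0.61, 0.893 and 0.774 from edgeR. All 3 signs turned with the choice of libraries, and those of both CD4+ subsets also with upper-quartile scaling, while without monocyte replicate 1 the value in Tim-4-CD4- macrophages became 0.40 and was called (adjusted p = 0.0349).

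Fcer1g, the signaling chain that all 3 activating receptors share, was at 998, 774 and 793 CPM in monocytes. It was at 805, 798, 790 and 823 CPM in Tim-4-CD4-, at 809, 812, 830 and 805 CPM in Tim-4-CD4+ and at 1072, 889, 808 and 769 CPM in Tim-4+CD4+ macrophages. The libraries of all 4 populations overlapped. The log2 fold changes from monocytes were -0.09 (95% interval -0.32 to 0.15), -0.07 (-0.30 to 0.16) and 0.05 (-0.18 to 0.28), so that a change of more than 1.5-fold lay outside all 3 intervals. Their signs, too, turned when monocyte replicate 1 or Tim-4+CD4+ replicate 1 was left out. Per kilobase of exon, which allows genes to be compared, Fcer1g was the most abundant of the 6 in every population, at 978 ± 142 CPM per kilobase (SD, n = 3) in monocytes and between 920 and 1012 as a mean in the macrophage subsets.

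Fcgr2b, the inhibitory receptor, was also higher in macrophages of all 3 subsets. Monocyte libraries had 391, 304 and 399 CPM. Libraries of Tim-4-CD4- macrophages had 697, 682, 621 and 685 CPM, those of Tim-4-CD4+ macrophages 636, 604, 606 and 638 CPM, and those of Tim-4+CD4+ macrophages 488, 579, 543 and 482 CPM. All macrophage libraries lay above all monocyte libraries, with those of Tim-4+CD4+ macrophages nearest to them, while those of the 2 Tim-4- subsets overlapped with each other (log2 difference -0.11, adjusted p = 0.541, edgeR). The log2 fold change from monocytes was 0.88 ± 0.10 (SE, adjusted p = 1.11e-06, edgeR) in Tim-4-CD4-, 0.77 ± 0.10 (adjusted p = 4.51e-06) in Tim-4-CD4+ and 0.52 ± 0.10 (adjusted p = 0.000232) in Tim-4+CD4+ macrophages. The gene's counts add up all its transcripts, so its splice forms were not told apart.

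Fcgrt, the FcRn heavy chain, differed most from monocytes in Tim-4+CD4+ macrophages. It was at 42.4, 49.6 and 52.7 CPM in monocytes. It was at 182, 180, 162 and 181 CPM in Tim-4-CD4-, at 172, 186, 220 and 197 CPM in Tim-4-CD4+ and at 393, 253, 284 and 253 CPM in Tim-4+CD4+ macrophages. The monocyte libraries lay far below all others, and those of Tim-4+CD4+ macrophages lay above all libraries of the other 2 subsets. The log2 fold change from monocytes was 1.87 ± 0.15 (SE, adjusted p = 9.27e-09, edgeR) in Tim-4-CD4-, 2.01 ± 0.15 (adjusted p = 3.46e-09) in Tim-4-CD4+ and 2.62 ± 0.15 (adjusted p = 1.43e-10) in Tim-4+CD4+ macrophages, or 3.66-fold, 4.02-fold and 6.14-fold.

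Between the macrophage subsets, Fcgrt and Fcgr2b were the 2 genes called, in opposite directions. Fcgrt was 1.68-fold higher in Tim-4+CD4+ than in Tim-4-CD4- macrophages (log2 0.75 ± 0.13 SE, adjusted p = 0.000455, edgeR), with no overlap between libraries. It was 1.53-fold higher in Tim-4+CD4+ than in Tim-4-CD4+ macrophages (log2 0.61 ± 0.13, adjusted p = 0.0113), again with no overlap. Fcgr2b fell by 0.36 ± 0.09 on the log2 scale from Tim-4-CD4- cells to Tim-4+CD4+ cells (adjusted p = 0.00963), also with no overlap. Between the 2 CD4+ subsets its log2 difference was -0.25 ± 0.09 (adjusted p = 0.202, unadjusted p = 0.0165), which did not pass although the libraries did not overlap. The comparisons among the subsets share libraries with each other.

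Without Tim-4+CD4+ replicate 1, the log2 difference of Fcgrt was 0.58 from Tim-4-CD4- macrophages (adjusted p = 0.00028, edgeR) and 0.44 from Tim-4-CD4+ macrophages (adjusted p = 0.0138), and that of Fcgr2b was -0.32 (adjusted p = 0.0215). All 3 calls were made without it. The call of Fcgrt between the CD4+ subsets was lost when only those 2 subsets were fitted (log2 0.60, adjusted p = 0.0544).

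From Tim-4-CD4- cells to Tim-4-CD4+ cells, none of the 6 genes was called by edgeR or by DESeq2, and none had an unadjusted p under 0.05 with edgeR. Among all genes, 4.52% were higher and 5.53% lower in that comparison. From Tim-4-CD4- cells to Tim-4+CD4+ cells, 1 of the 6 was called higher and 1 lower, with 11.3% of all genes higher and 11.9% lower. Between the 2 CD4+ subsets, 1 of the 6 was called higher and none lower, with 2.07% and 1.34% of all genes. The median log2 difference of the 6 genes was 0.06, 0.17 and 0.07 in these comparisons, and that of all genes was 0.00 in each.

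The activating receptors did not pass the test between any 2 subsets, and the intervals show what differences the data leave room for. From Tim-4-CD4- cells to Tim-4+CD4+ cells, Fcgr3 differed by 0.21 on the log2 scale (95% interval -0.01 to 0.43, adjusted p = 0.161, edgeR), with no overlap between libraries, and by 0.11 (adjusted p = 0.407) without Tim-4+CD4+ replicate 1. Fcgr4 differed by 0.23 (-0.24 to 0.70, adjusted p = 0.509), or 0.15 without that library, and Fcgr1 by -0.16 (-0.49 to 0.17, adjusted p = 0.51), both with overlapping libraries. From Tim-4-CD4- cells to Tim-4-CD4+ cells, Fcgr1 was lower and Fcgr3 and Fcgr4 were higher without overlap of the libraries, but by no more than 0.19 on the log2 scale in size, with adjusted p-values of 0.698, 0.648 and 0.685. The share of all genes whose libraries did not overlap was not counted in any comparison, so absence of overlap is description only. Fcer1g differed by 0.02, 0.14 and 0.12 over the 3 subset comparisons, and the highest upper bound of their intervals was 0.35 on the log2 scale. Without Tim-4+CD4+ replicate 1 the latter 2 differences were 0.035 and 0.016.

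**Figure D2:**
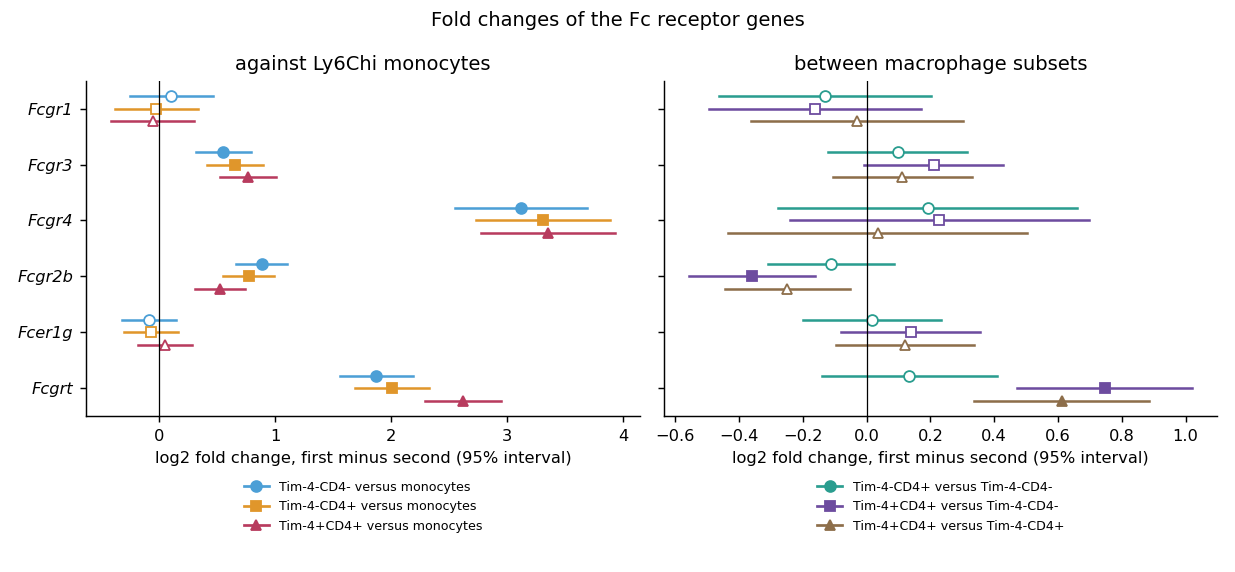
Log2 fold changes of the 6 genes with their 95% intervals from edgeR, against monocytes on the left and between macrophage subsets on the right, where the axis is finer. Filled symbols passed an adjusted p of 0.05 over all genes and open symbols did not. Fcgr4 shows the largest values against monocytes (3.12 to 3.35), and on the right Fcgrt (0.75 and 0.61) and Fcgr2b (-0.36) are the filled ones.

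The ratio of activating to inhibitory receptor transcripts can be read within a library, where scaling between libraries plays no part. Counts were divided by the summed exon length of each gene, and then by the same value of Fcgr2b. These ratios are given as description, without a test, and they are of transcripts, not of receptor proteins. Their size depends on the length chosen: in Tim-4-CD4- macrophages the mean of Fcgr4 to Fcgr2b was 2.83 on exon length and 0.84 on coding length. The ratio of Fcgr4 to Fcgr2b was 0.91, 0.38 and 0.45 in the monocyte libraries. It was 2.49, 2.76, 3.26 and 2.82 in Tim-4-CD4- libraries, 3.49, 3.38, 3.68 and 3.38 in Tim-4-CD4+, and reached 5.31, 3.94, 3.77 and 4.05 in Tim-4+CD4+ macrophages. No library of one population overlapped with those of another, and the mean ratio was 4.87-fold, 5.98-fold and 7.33-fold that of monocytes, the last being 6.73-fold without Tim-4+CD4+ replicate 1.

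The ratio of Fcgr3 to Fcgr2b took another course. It was 3.83, 3.62 and 3.06 in the monocyte libraries. It was 2.73, 2.60, 3.00 and 2.81 in Tim-4-CD4- libraries, 3.05, 3.22, 3.34 and 3.27 in Tim-4-CD4+, and reached 5.31, 3.63, 3.64 and 4.08 in Tim-4+CD4+ macrophages. The 3 subsets did not overlap with each other, rising in the order given, and monocytes overlapped with both CD4+ subsets but not with Tim-4-CD4- macrophages. The mean in Tim-4+CD4+ macrophages was 1.49-fold that in Tim-4-CD4- macrophages, and the same comparison gave 1.51-fold for Fcgr4. Without Tim-4+CD4+ replicate 1, which held the highest value of both, these were 1.36-fold and 1.38-fold, and the subsets still did not overlap. Both ratios are divided by Fcgr2b, which was called lower in Tim-4+CD4+ than in Tim-4-CD4- macrophages (log2 -0.36, all libraries). Fcgr3 and Fcgr4 themselves were not called there (0.21 and 0.23), so these folds are not independent of each other. The ratio of Fcgr1 to Fcgr2b was 1.68 ± 0.43 (SD, n = 3) in monocytes and 1.00 ± 0.10, 0.99 ± 0.03 and 1.16 ± 0.18 (SD, n = 4) in the 3 subsets in turn. The subsets overlapped with each other, and all macrophage libraries but Tim-4+CD4+ replicate 1 lay below every monocyte library.

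Among the 4 Fc gamma receptors, taken per kilobase of exon, the shares of the whole that Fcgr1, Fcgr3 and Fcgr4 held differed between blood and gut. Fcgr1 held 24.7 ± 3.52% (SD, n = 3) in monocytes and 13.1 ± 0.32%, 11.4 ± 0.25% and 10.9 ± 0.32% (SD, n = 4) in the 3 subsets in turn. Fcgr3 held 52.0 ± 4.73% (SD, n = 3) in monocytes and between 36.6 and 39.2% as a mean in the macrophage subsets. Fcgr4 held 8.34 ± 2.87% in monocytes and 37.1 ± 1.73%, 40.1 ± 0.84% and 40.3 ± 0.65% (SD, n = 4) in the 3 subsets in turn. Shares add up to a whole, so a rise in any of them lowers the others. Fcgr3 itself was called higher than in monocytes in every subset (log2 0.55 to 0.76, edgeR), and Fcgr1 was not called. The share of Fcgr2b was 14.97 ± 2.00% in monocytes and 13.2 ± 0.92%, 11.5 ± 0.31% and 9.60 ± 1.34% in the subsets, with overlap between the libraries of monocytes and Tim-4-CD4- macrophages. These shares rest on the length chosen, since Fcgr2b has 5790 exon bases but 1020 coding bases. Per kilobase of coding sequence, Fcgr2b held 32.1 ± 3.34% in monocytes and 30.6 ± 1.67%, 27.5 ± 0.59% and 23.6 ± 2.85% in the subsets, against 5.35 ± 2.02% and then 25.5 ± 1.55%, 28.4 ± 0.70% and 29.4 ± 0.92% for Fcgr4. On that length Fcgr2b stood above Fcgr4 in Tim-4-CD4- macrophages, whereas on exon length it stood below it. Fcgr3 held 42.6 ± 3.23% in monocytes and between 32.4 and 36.9% in the subsets, the highest mean of the 4 genes in every population. This use of coding length was added after the data had been seen.

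Relative to the sum of its partners, the gamma chain gene was lower in the gut. Fcer1g itself was not called against monocytes, whereas Fcgr3 and Fcgr4, which enter the sum, were called higher in every subset. The ratio of Fcer1g to the sum of Fcgr1, Fcgr3 and Fcgr4, per kilobase, was 2.45, 3.18 and 2.58 in the monocyte libraries. It was 1.20 ± 0.05, 1.13 ± 0.03 and 1.18 ± 0.03 (SD, n = 4) in the 3 subsets in turn. No macrophage library exceeded 1.24, so all lay below the lowest monocyte library. This ratio was added after the values of its parts had been seen.

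**Figure D3:**
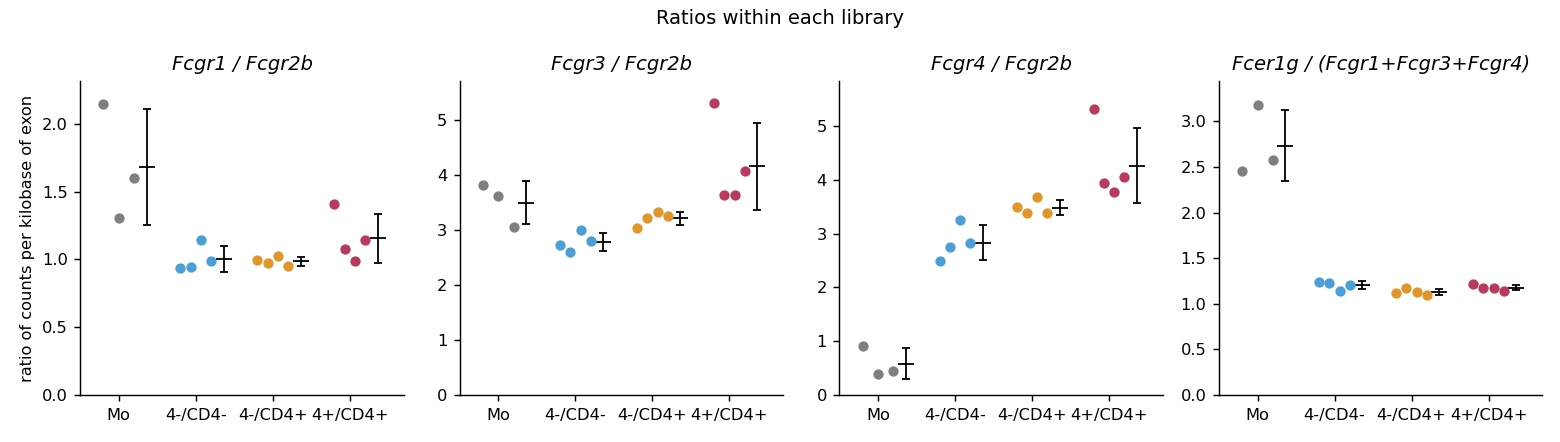
Ratios within each library of the activating receptors to Fcgr2b, and of the gamma chain gene Fcer1g to the sum of its 3 receptor partners. The vertical axes are ratios of counts per kilobase of exon from 0, each point is 1 library, and bars are the mean with its SD (Mo is monocytes with n = 3, and the macrophage subsets, n = 4, are named by Tim-4 and CD4). Fcgr4 to Fcgr2b lies between 0.38 and 0.91 in monocytes and between 2.49 and 5.31 in macrophages, and the ratio of the chain is highest in monocytes.

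The promoters of the activating receptors are shown because Fcgr3 and Fcgr4 were higher in macrophages and Fcgr1 was not. RefSeq promoter windows, from 250 bases before to 50 bases after the start (GRCm38.p6), were found for all 6 genes. They were searched on both strands for GAGGAA, the core recognized by the myeloid factor PU.1, and for TTCNNNGAA, the palindrome bound by STAT factors. The stretches around the matches, read 5′ to 3′ along each gene with the matches in capitals, were:
Fcgr1, chr3:96293999-96294098, minus strand: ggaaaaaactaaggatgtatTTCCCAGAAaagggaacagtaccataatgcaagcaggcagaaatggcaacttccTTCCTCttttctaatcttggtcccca
Fcgr3, chr1:171059384-171059429, minus strand: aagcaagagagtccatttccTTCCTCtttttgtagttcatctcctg
Fcgr4, chr1:171018884-171018929, plus strand: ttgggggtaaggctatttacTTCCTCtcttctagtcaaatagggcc
In all 3 the PU.1 core was on the opposite strand, so that it reads as its complement, and it began at position -55 from the start of Fcgr1, -22 from that of Fcgr4, and -6 or -15 from the 2 starts listed for Fcgr3, whose windows share the same match. It was in none of the windows of Fcgr2b, Fcer1g and Fcgrt, and in 28.3% of all 32851 promoter windows. Fcgr1 was the only one of the 6 with the STAT palindrome, which 8.3% of all windows hold. A match is a run of letters and says nothing of binding, and Fcgr1, which was not called higher in macrophages, held the PU.1 core as did Fcgr3 and Fcgr4, which were.

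The genes whose expression over the 15 libraries was closest to each member were found by the root mean square difference of centered log2 CPM among 8308 genes with a mean of at least 10 CPM. Fcgr4 was followed most closely by Rhoh (0.16 on the log2 scale) and Tgm2 (0.19), against a median of 1.48 over all genes compared. Fcgrt was followed by Cracr2b (0.17) and Slc27a1 (0.18), Fcgr3 by Lap3 (0.09) and Lgals3bp (0.09), and Fcgr2b by Hsdl2 (0.11) and Etf1 (0.12). For Fcgr1 they were H2-T10 (0.13) and Psmb9 (0.14), and for Fcer1g, Taf6l (0.06) and Coro1b (0.07). The median over all genes compared was lower for these than for Fcgr4: 1.03 for Fcgrt, 0.47 for Fcgr3 and 0.48 for Fcgr2b. It was 0.38 for Fcgr1 and 0.33 for Fcer1g. Like Fcgrt, Cracr2b rose from 3.85 CPM in monocytes to 11.4, 12.7 and 23.1 CPM in the 3 subsets in turn as means.

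Other receptors for immunoglobulin were mostly higher in macrophages, many at very low levels. Of 12 genes listed, 9 were tested, and 8 were higher and 1 lower in Tim-4-CD4- macrophages than in monocytes. Of all genes, 37.3% were higher and 28.1% lower in that comparison. No monocyte library held more than 0.156 CPM of Fcer2a, Fcmr, Pigr, Fcrl5 or Fcrla. These genes passed the filter on low counts through the macrophage libraries, so the filter in large part fixed the list's count and median. The largest difference was in Fcrls, an Fc receptor-like gene known from microglia, at 0.23 CPM in monocytes and 116, 123 and 72.7 CPM in the 3 subsets in turn as means. It fell by 0.67 ± 0.14 (SE, adjusted p = 0.0016, edgeR) on the log2 scale from Tim-4-CD4- cells to Tim-4+CD4+ cells. Between the CD4+ subsets its log2 difference was -0.76 ± 0.14 (adjusted p = 0.0029). Fcrl1 went the other way among the subsets, from 6.97 to 11.6 and 14.7 CPM, with log2 differences of 0.74 ± 0.16 (adjusted p = 0.0055) and 1.08 ± 0.16 (adjusted p = 9.8e-05) from Tim-4-CD4- macrophages. Fcmr, the IgM receptor of lymphocytes, had 1 count in all 3 monocyte libraries together and 235 in the Tim-4-CD4- libraries (1.24 CPM as a mean), a ratio of 351 after scaling with a 95% exact counting interval of 62.3 to 13913. Trim21, the cytosolic antibody receptor, was lower in Tim-4-CD4- macrophages (log2 -0.48 ± 0.14, adjusted p = 0.0071). The median log2 fold change of the list was 4.49, or 4.16 with the 3 genes at or below 3 counts in every monocyte library set to the bound that 3 counts allow.

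Lymphocytes carry several of these receptors, and transcripts of B cell markers were found in the macrophage libraries. All 4 B cell markers used (Ms4a1, Cd79a, Cd79b and Pax5) were in the table and none was at 0 in any population as a mean. Their sum was 8.22 to 10.5 CPM in monocytes, 35.4 to 41.2 in Tim-4-CD4-, 40.1 to 45.8 in Tim-4-CD4+ and 35.3 to 70.3 in Tim-4+CD4+ libraries, most of it from Cd79b. Cd79b was at 9.02 CPM in monocytes, where Cd79a, Ms4a1 and Pax5 were each at most 0.066 CPM as means. In the subsets it was at 31.4, 36.6 and 42.5 CPM, against 4.02, 3.31 and 4.21 CPM for Cd79a, so the sum mostly follows Cd79b. Ms4a1, which encodes CD20, was at most 1.25 CPM as a mean. The lineage stain by which the study left out lymphocytes included B220, a protein that B cells carry and plasma cells mostly lose. Plasma cells, which also express Fcgr2b, left more transcripts: their 4 markers, all in the table, summed to 1.70 to 3.10 CPM in monocytes and to 252 to 399, 232 to 381 and 200 to 370 CPM in the libraries of the 3 subsets in turn. Nearly all of it was Jchain, the joining chain of secreted IgA and IgM, at 297, 292 and 280 CPM as means, whereas Mzb1, Derl3 and Sdc1 were between 4.67 and 8.04 CPM. The part of B and plasma cell transcripts in the levels of Fcmr, Fcrl1, Fcrl5 and Fcgr2b was not tested. In bulk libraries such as these, fewer cells of a type and less RNA per cell cannot be told apart.

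Endothelium and epithelium are other sites of Fcgrt. The sort is meant to remove both, since the macrophages had been gated on CD45 and CD11b after epithelium was stripped with EDTA. Some endothelial and epithelial markers were nonetheless higher in Tim-4+CD4+ than in Tim-4-CD4- macrophages, as Fcgrt was. All 5 endothelial markers were in the table, and their sum was 11.97 to 20.98 CPM in monocytes, 115 to 130 in Tim-4-CD4-, 187 to 222 in Tim-4-CD4+ and 338 to 374 in Tim-4+CD4+ libraries. Most of it was Pecam1, at 104, 185 and 305 CPM in the 3 subsets, a gene that myeloid cells also express. Pecam1 was called higher in Tim-4+CD4+ than in Tim-4-CD4- cells (log2 1.56, adjusted p = 4.4e-07, edgeR) and than in Tim-4-CD4+ cells (0.72, adjusted p = 0.0044). It was also called higher in Tim-4-CD4+ than in Tim-4-CD4- cells (0.84, adjusted p = 0.00071). Cdh5 and Kdr, which define endothelium more narrowly, were at 4.58, 3.33 and 5.24 CPM and at 4.89, 2.37 and 4.19 CPM, and were not called between subsets. Stab2 and Lyve1, of sinusoidal and lymphatic endothelium, were higher in Tim-4+CD4+ than in Tim-4-CD4- macrophages. Stab2 was at 0 in monocytes and at 0.74, 2.07 and 10.7 CPM in the subsets. Its log2 difference was 3.82 ± 0.40 SE from Tim-4-CD4- cells (adjusted p = 7e-06, edgeR) and 2.36 ± 0.37 from Tim-4-CD4+ cells (adjusted p = 0.0014). Lyve1 was at 0.045 CPM in monocytes and at 8.82, 9.70 and 23.1 CPM in the subsets. It differed by 1.38 ± 0.38 from Tim-4-CD4- cells (adjusted p = 0.0135) and by 1.25 ± 0.37 from Tim-4-CD4+ cells (adjusted p = 0.0907, not called). Some tissue macrophages express Lyve1 as well. All 6 epithelial markers were in the table and summed to 1.08 to 1.51 CPM in monocytes and to 11.4 to 19.7, 17.1 to 23.5 and 17.6 to 28.3 CPM in the libraries of the 3 subsets in turn, with Epcam and Fabp2 at 0 in monocytes. Of these, Krt20 (log2 2.08 ± 0.33, adjusted p = 0.00019, edgeR), Fabp2 (1.77 ± 0.32, adjusted p = 0.00088) and Vil1 (1.15 ± 0.30, adjusted p = 0.011) were higher in Tim-4+CD4+ than in Tim-4-CD4- macrophages, with no mean above 4.21 CPM, while Epcam had a log2 difference of -1.47 ± 0.53 (adjusted p = 0.06). Krt20, Fabp2 and Vil1 were also called higher in Tim-4-CD4+ than in Tim-4-CD4- macrophages (1.59, 1.59 and 1.12), where Fcgrt was not called. Between the CD4+ subsets, where Fcgrt was called, they were not (0.50, 0.19 and 0.02). The part of endothelial and epithelial transcripts in the level of Fcgrt was not tested. NK cells express Fcgr3, and their 5 markers, all in the table, summed to no more than 4.25 CPM in any library. The 5 T cell markers summed to at most 9.63 CPM, the 3 of 4 eosinophil markers in the table to at most 17.9 CPM and the 4 of 7 markers of mast cells and basophils to at most 13.99 CPM, most of it Kit, with Cpa3, Mcpt1 and Mcpt2 at 0 in monocytes. Of neutrophils, which express Fcgr3 and Fcgr4, 5 of 7 markers were in the table and summed to 446 to 463 CPM in monocytes and 145 to 201 CPM in macrophages, nearly all of it Csf3r, which monocytes also express, while S100a8 and S100a9 were at most 1.21 CPM in every population as means. The 4 dendritic cell markers summed to 25.04 to 37.8 CPM in monocytes and 25.5 to 50.8 CPM in macrophages. The markers of the labeled populations were as named: 7 macrophage markers summed to 23157 CPM or more in every macrophage library and to 3990 at most in monocytes, and 5 Ly6Chi monocyte markers to at least 7094 CPM in monocytes and at most 829 in macrophages.

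Below the ITAM, the genes that carry the signal onward changed in both directions. Of 24 genes, 6 were higher and 11 lower in Tim-4-CD4- macrophages than in monocytes, with 7 and 13 in Tim-4-CD4+ and 7 and 12 in Tim-4+CD4+ macrophages. Over these comparisons, 37.3% to 39.5% of all genes were higher and 28.1% to 31.3% lower. The kinase gene Src was at 0.40 CPM in monocytes and 106 CPM in Tim-4-CD4- macrophages (log2 7.95 ± 0.29 SE, adjusted p = 4.4e-13, edgeR), and Blnk, an adaptor for Syk, at 0.49 and 19.6 CPM (5.32 ± 0.22, adjusted p = 2.3e-12). In the other direction, the Src family kinase gene Fgr fell from 687 to 116 CPM (-2.56 ± 0.14, adjusted p = 7.3e-11) and the phospholipase gene Plcg2 from 689 to 207 CPM (-1.74 ± 0.09, adjusted p = 2.3e-11). Syk itself, named after its values were seen, was at 706 CPM in monocytes and 703, 640 and 633 CPM in the subsets, with no call in any comparison. The median log2 fold change of the list was -0.22, -0.28 and -0.27 against monocytes in the 3 subsets.

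Between subsets, none of these 24 genes was called from Tim-4-CD4- cells to Tim-4-CD4+ cells or between the CD4+ subsets. Few of all genes were called there: 4.52% higher and 5.53% lower in the first comparison, and 2.07% and 1.34% in the second. From Tim-4-CD4- cells to Tim-4+CD4+ cells 3 were higher and 4 lower, beside 11.3% and 11.9% of all genes. The 4 with the largest differences were Blnk (log2 -0.75 ± 0.16, adjusted p = 0.0019, edgeR), Src (0.51 ± 0.18, adjusted p = 0.048), the adaptor gene Sh3bp2 (0.46 ± 0.12, adjusted p = 0.011) and Fgr (-0.40 ± 0.13, adjusted p = 0.03).

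On the inhibitory side, 15 of 16 listed genes were tested, and in Tim-4-CD4- macrophages 3 were higher and 9 lower than in monocytes. In each of the CD4+ subsets these numbers were 3 and 10. Over these comparisons, 37.3% to 39.5% of all genes were higher and 28.1% to 31.3% lower. The adaptor gene Dok2 rose from 14.98 to 66.9 CPM (log2 2.16 ± 0.18 SE, adjusted p = 1.6e-08, edgeR) and the lipid phosphatase gene Inppl1 from 76.4 to 145 CPM (0.93 ± 0.10, adjusted p = 3.6e-07). Pirb, an inhibitory receptor for MHC class I, fell from 881 to 354 CPM (-1.31 ± 0.11, adjusted p = 2.1e-08) and the adaptor gene Pag1 from 121 to 56.1 CPM (-1.11 ± 0.18, adjusted p = 4.2e-05). Inpp5d, the phosphatase that acts with Fcgr2b and was named after its values were seen, was at 369 CPM in monocytes and 406, 404 and 393 CPM in the subsets, with no call. From Tim-4-CD4- cells to Tim-4+CD4+ cells, Dok3 (0.37 ± 0.13, adjusted p = 0.048) and Dok1 (0.34 ± 0.09, adjusted p = 0.013) were higher and the phosphatase gene Ptpn11 lower (-0.37 ± 0.10, adjusted p = 0.016). Of all genes, 11.3% were higher and 11.9% lower there. No gene of the list was called between the other subsets. The shares of all genes were 4.52% higher and 5.53% lower from Tim-4-CD4- cells to Tim-4-CD4+ cells. Between the CD4+ subsets they were 2.07% and 1.34%.

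The gamma chain has sister adaptors and serves other receptors. Tyrobp, which encodes the adaptor DAP12, was at 1036 CPM in monocytes and 563, 569 and 627 CPM in the subsets, and was lower in Tim-4-CD4- macrophages (log2 -0.88 ± 0.13 SE, adjusted p = 1.7e-05, edgeR), as was Hcst, another adaptor gene (-0.92 ± 0.22, adjusted p = 0.0014). Cd247, the zeta chain of T and NK cells, was called higher with 3 counts in all monocyte libraries and 61 in Tim-4-CD4- libraries, a ratio of 30.4 with a 95% counting interval of 9.91 to 151. Cd247 passed the filter on low counts through the macrophage libraries. None of these 3 genes was called between subsets, where at most 11.3% of all genes were higher and 11.9% lower. Of the lectin receptors that use the gamma chain, Clec4n (Dectin-2) rose from 9.41 CPM in monocytes to 162, 288 and 324 CPM in the subsets, and from Tim-4-CD4- macrophages its log2 difference was 0.83 ± 0.12 (adjusted p = 0.00028) to Tim-4-CD4+ and 1.00 ± 0.12 (adjusted p = 1.4e-05) to Tim-4+CD4+ macrophages. Clec4e (Mincle) was at 48.7, 29.3, 4.25 and 2.25 CPM in monocytes and the 3 subsets, and was lower in all 3 subset comparisons. Its log2 difference from Tim-4-CD4- cells was -2.78 ± 0.24 (adjusted p = 1.6e-06) in Tim-4-CD4+ cells and -3.71 ± 0.25 (adjusted p = 2.1e-08) in Tim-4+CD4+ cells, and that between the CD4+ subsets was -0.93 ± 0.24 (adjusted p = 0.043). Clec4d was lower in Tim-4-CD4- macrophages than in monocytes (-2.28 ± 0.15, adjusted p = 1e-09), as was Clec4e (-0.73 ± 0.24, adjusted p = 0.012). Of 7 listed genes of this kind 5 were tested.

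Of the 9 genes that work with FcRn or recycle endosomes, 3 were higher and 3 lower in Tim-4-CD4- macrophages than in monocytes, and the median log2 fold change was 0.03. Among all genes, 37.3% were higher and 28.1% lower in that comparison. B2m, the light chain without which FcRn does not reach the endosome, was named after its values were seen. It was at 2624 CPM in monocytes and 3206, 3047 and 2854 CPM in the subsets, and was not called in any comparison, whereas Fcgrt was called in 5 of 6. Myo5b and Rab25, which are best known from epithelial recycling endosomes, had no count in any monocyte library and 0.33 and 0.23 CPM in Tim-4-CD4- macrophages, at least 5.94-fold and 4.21-fold higher given a floor of 3 counts per library. Both passed the filter on low counts through the macrophage libraries and could only be higher there. Rab11a (log2 -0.55 ± 0.08 SE, adjusted p = 1.1e-05, edgeR) and Rab11b (-0.45 ± 0.11, adjusted p = 0.0017) were lower than in monocytes. Between subsets a single gene was called, Rab4a, a GTPase of fast recycling, which was higher in Tim-4+CD4+ than in Tim-4-CD4- macrophages (0.58 ± 0.17, adjusted p = 0.024). Among all genes, 11.3% were higher and 11.9% lower there, and in the other subset comparisons the shares ran from 1.34% to 5.53%.

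**Figure D4:**
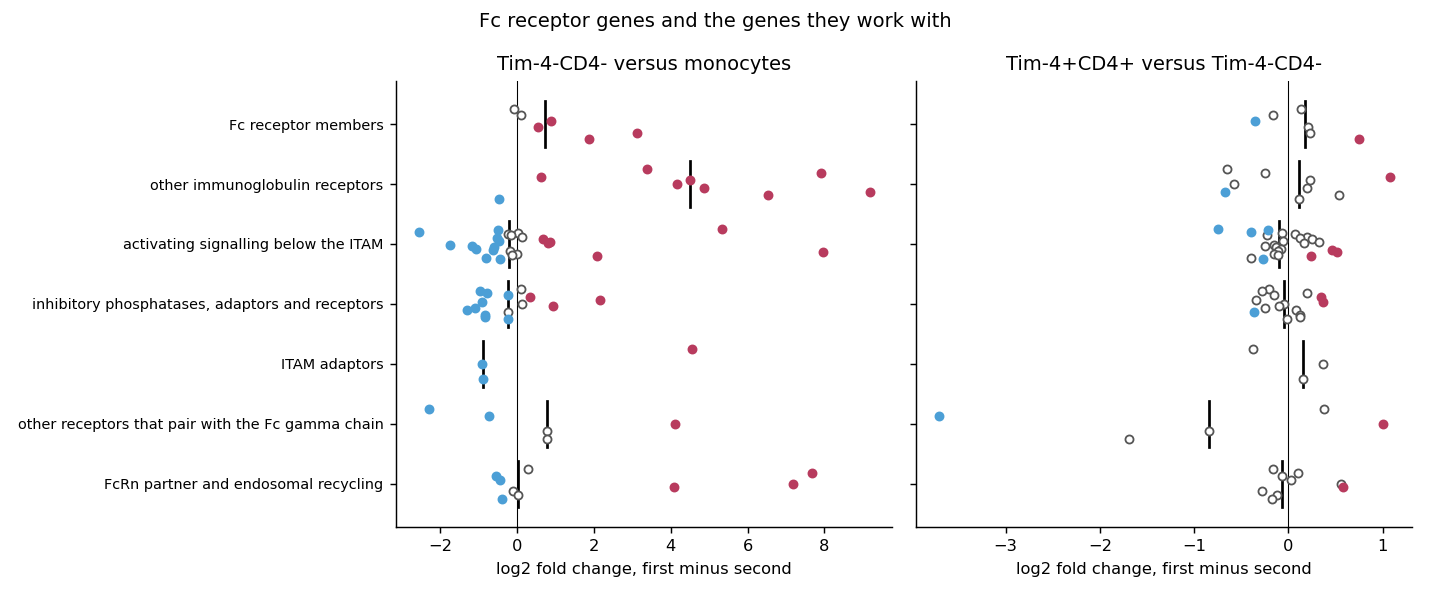
Log2 fold changes of the Fc receptor genes and of 6 lists of genes related to them, in Tim-4-CD4- macrophages against monocytes (left) and in Tim-4+CD4+ against Tim-4-CD4- macrophages (right, on another scale). Each point is 1 gene, red where called higher, blue where called lower and open where not called at an adjusted p of 0.05, and black lines are medians. Fitted values of Fcmr, Pigr, Fcrl5, Cd247, Rab25 and Myo5b on the left rest on at most 3 counts in each monocyte library and depend on the prior count, and the point at the far left of the right panel is Clec4e (-3.71).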

How the data were processed

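The authors sorted the cells, prepared stranded mRNA libraries, trimmed the reads (Trimmomatic 0.36, per the labels), aligned them with STAR to GRCm38.p4, and assigned reads with a unique position to genes with HTSeq 0.6.1p1 against GENCODE vM11. They deposited raw counts per gene, which were used here, and 15 columns of the same counts divided by size factors, which were not used. Their strand setting is not given in the sources used here. The median library had 63249039 counts on genes. Counting intervals (for the ratios of Fcmr and Cd247) and floors (3 counts) cover counting error only, as reads carried no molecular identifiers. The intervals of fold changes from edgeR come from its quasi-likelihood fit and also take in variation between libraries.

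Symbols were taken from the reference tables for 19421 of 19456 identifiers. Genes with low counts were removed with filterByExpr, and a single quasi-likelihood fit by population with TMM scaling (R 4.3.3, edgeR 4.0.16, limma 3.58.1) gave all 6 comparisons, adjusted by Benjamini-Hochberg over the 15802 genes tested. DESeq2 1.42.0, other scalings, no filter, pairwise fits, replicate blocks and leaving out each library were alternatives. The fit was tested on simulated data. Libraries were grouped and numbered by title, although the titles and descriptions of the Tim-4-CD4+ libraries number them differently, and although macrophages came from 4 sorts and monocytes from 3, no source says which libraries share a sort. Ratios used the summed exon length of GENCODE vM21 (GRCm38). Promoters came from RefSeq, and plots were made in matplotlib 3.10.9 (Python 3.11.15).

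Named genes were all 6 receptors, the 2 genes closest to each, every list gene called between subsets (at most 4 per list and comparison, by size) and the 2 largest changes in each direction per list against monocytes in Tim-4-CD4- macrophages. The members and the lists were chosen with earlier results of these data known. No set of genes was tested as a set. A planned marker gene is not reported here and was left out of its list.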

Additional observations from a re-analysis of the deposited data

Results flagged for a closer look

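Of 27 groups of 4 libraries (the 6 genes and the 3 ratios in each macrophage subset), 1 held a library far from the others by Dixon's test at the 95% level, and chance alone flags about 1 group in 20. It was Fcgrt in Tim-4-CD4- replicate 3, at 162 CPM, where the other 3 libraries of the subset had a mean of 181 CPM. Its gap to the nearest library was 0.93 of the whole range of the group. The range was narrow, and this library was lower than the rest by a smaller amount than the subset differed from Tim-4+CD4+ macrophages.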

How the results depend on the processing

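The number of Fc receptor genes called stayed at its value in every comparison under DESeq2, RLE and upper-quartile scaling, no filter and both replicate blocks (4, 4, 4, 0, 2 and 1), with 1 exception elsewhere: fitting the 2 CD4+ subsets alone called 0 of 6 genes between them. Leaving out single libraries gave 4 to 5 genes in Tim-4-CD4- macrophages against monocytes and changed no other number.

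Whether the replicate numbers pair the samples could not be settled, and the main fit used no pairing. Same-numbered macrophage libraries had correlations of their deviations between -0.12 and 0.13 by title and between -0.09 and 0.16 by description. Of 12 such pairs, the same number gave the highest correlation in 3 by title and in 5 by description. Weak correlations do not show that libraries came from separate sorts. With the block by title the genes called were 4, 4, 4, 0, 2 and 1 in the 6 comparisons, and over all genes 9979, 10635, 10869, 1294, 3267 and 431.

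Reversed signs were confined to differences that were not called. For Fcgr1 in Tim-4-CD4+ macrophages against monocytes the log2 value was 0.021 with DESeq2, 0.021 with RLE scaling, 0.057 with upper-quartile scaling, and 0.021 and 0.025 with the blocks by title and by description, and it ran from -0.24 to 0.27 when single libraries were left out. With upper-quartile scaling it was 0.065 in Tim-4+CD4+ macrophages against monocytes and 0.0078 against Tim-4-CD4+ macrophages, and that of Fcer1g in Tim-4-CD4+ macrophages against monocytes was 0.014. With single libraries left out, Fcgr1 ran from -0.11 to 0.40 in Tim-4-CD4- macrophages and from -0.27 to 0.25 in Tim-4+CD4+ macrophages against monocytes and from -0.099 to 0.032 between the CD4+ subsets. Fcgr4 between the CD4+ subsets ran from -0.046 to 0.092. Fcer1g ran from -0.13 to 0.062, from -0.11 to 0.085 and from -0.037 to 0.21 against monocytes in the 3 subsets in turn. The causes were not tested.

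With coding length in place of exon length, ratios to Fcgr2b were lower by construction: in monocytes and the 3 subsets in turn they were 0.633, 0.378, 0.371 and 0.435 for Fcgr1, 1.34, 1.06, 1.23 and 1.59 for Fcgr3, and 0.172, 0.839, 1.03 and 1.26 for Fcgr4. The ratio of Fcer1g to its partners, added later, became 4.39, 2.09, 1.97 and 2.05. Folds between populations of the ratios to Fcgr2b do not depend on the length. Over all genes, 539 were called between the CD4+ subsets and 917 with DESeq2, and 1589 from Tim-4-CD4- cells to Tim-4-CD4+ cells and 1033 without Tim-4-CD4+ replicate 4. Upper-quartile scaling moved the median of all genes by up to 0.11 (Tim-4+CD4+ macrophages against monocytes).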
